A study of Rattus norvegicus with 6 samples.

Results

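The genes of the proteasome were examined in rat pancreas, in animals kept on a control diet and in animals kept on an ethanol diet. They were chosen by symbol: a gene was taken if the platform annotation gave 1 of its probe sets a single symbol made of Psm, a letter from a to g and a number. This found 43 of the 10411 genes with a probe set of their own. Of these, 41 encode subunits, regulators or assembly factors of the proteasome. The remaining matches, Psmc3ip and Psme3ip1, carry a proteasome symbol inside their name and encode interacting proteins, so they were left out of the groups below. Where a gene had several probe sets, the one with the highest mean over the 6 arrays stood for it. In all, 6 further probe sets were annotated to a proteasome gene (Psma3, Psmb6 or Psme3) together with another gene. They were left out of the gene counts and medians below.

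The groups were 3 rats on the control diet and 3 rats on the ethanol diet, each giving 1 array of whole pancreas, and the series set out to ask what chronic ethanol consumption does to this organ. All rats were of the species Rattus norvegicus, with no genotype or drug beyond the diet named. The sources used here give no strain, age or sex of the rats, no composition of the diets and no length of feeding. Total RNA was copied into biotin-labelled cRNA and hybridised, and each value is a background-subtracted intensity on a linear scale.

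The proteasome is the protease that degrades most ubiquitin-tagged proteins of the cytosol and nucleus. Its core particle is a barrel of alpha and beta rings with the active sites on its inner wall, and a regulatory particle, made of a base with a ring of ATPases and a lid, binds ubiquitin chains, removes them and unfolds the substrate. Other caps, an inhibitor and a set of dedicated chaperones act on the core or on its assembly. Acinar cells of the pancreas make large amounts of secretory protein, and misfolded proteins are sent from their endoplasmic reticulum (ER) to the proteasome. When proteasomes are short of capacity, the transcription factor Nfe2l1 is known to raise many of the subunit genes together.

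The arrays held the tissue that the labels name. All 7 acinar markers were measured and included the brightest probe sets, with Cpa1, a carboxypeptidase, at 161528 to 168642 on every array. Array medians were 543 or 544, the values having been equalised before deposit, so a difference in total RNA between the diets could not be seen. Across the 7106 genes tested the median log2 change was -0.011, ethanol minus control. In whole tissue, fewer cells of a type and less RNA per cell cannot be told apart. Erythroid markers moved with the diet: their 4 measured genes summed to 15433 to 22883 on control arrays and to 25617 to 33312 on ethanol arrays. The part of this in the proteasome values was not tested.

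Most proteasome genes read slightly lower in ethanol-fed rats, and none of them passed the test. Of the 41 genes, 39 passed the intensity filter and were tested, and 31 of these had a negative log2 change, against 51.4% of all genes tested. The median of the 39 was -0.18 on the log2(value + 50) scale, or 11.8% lower. With limma, 0 of the 39 had an adjusted p under 0.05, where 0.436% of all genes tested did (31 of 7106), as did 0.410% of all probe sets (39 of 9520). At an unadjusted p under 0.05, 5 were lower and 0 higher. The background was 11.2% of genes lower and 7.64% higher, so the share of proteasome genes that were lower by this rule, 12.8%, was near that of all genes. The arrays of the diets did not overlap for 12 genes that were lower, 30.8%, and 1 that was higher. Among all genes tested 15.4% were separated in this way with ethanol lower, and 11.0% with ethanol higher. The 39 genes share the same 6 arrays, so they are not independent counts.

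**Figure D1:**
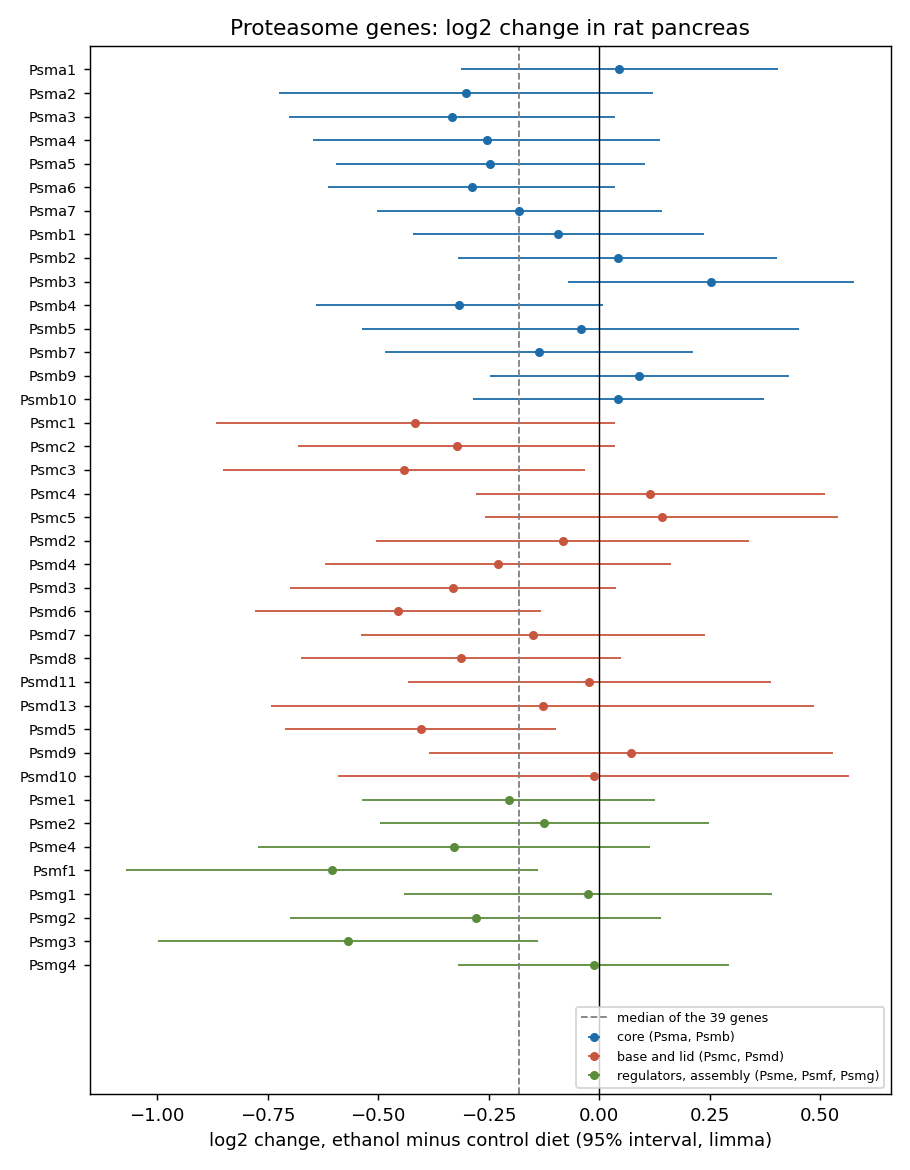
Log2 change of the 39 tested proteasome genes, ethanol minus control diet, with the 95% interval from limma, coloured by class; the dashed line is their median. Of the 39 points, 31 lie left of 0, and 34 of the intervals include 0.

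Small changes over many genes, rather than large ones in a few, made up this pattern. The middle part of the 39 changes, from the lower to the upper quartile, ran from -0.32 to -0.017, whereas that of all genes tested ran from -0.23 to 0.20. Only Psmf1 and Psmg3 lay beyond 0.5 in size, 5.13% of the 39, against 13.3% of all genes. The 95% interval lay within a 2-fold change in either direction for 38 of the 39 genes, and that of Psmf1 reached -1.07. Single genes could not be resolved at this size, as the median standard error of the 39 was 0.16.

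**Figure D2:**
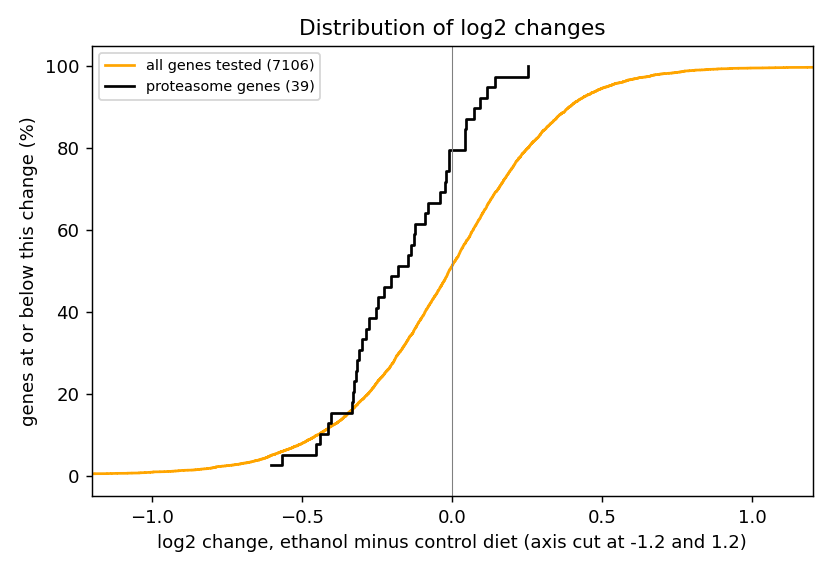
Cumulative share of genes (vertical axis, %) at or below each log2 change (horizontal axis, ethanol minus control) for the 39 proteasome genes and for all 7106 genes tested. The proteasome curve lies left of the other around 0, with a median of -0.18 against -0.011, and ends at 0.25.

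The arrays within the ethanol group differed. Each gene was set to its own mean over the 6 arrays, and the median of these deviations over the 39 genes was taken for every array. It was 0.13, 0.074 and 0.075 on control arrays 1, 2 and 3, and -0.15, 0.050 and -0.14 on ethanol arrays 1, 2 and 3. The lower levels thus lay on ethanol replicates 1 and 3, while ethanol replicate 2 was close to the controls. Of the 39 genes, 27 had their highest ethanol value on replicate 2, which was the highest ethanol array for 33.3% of all genes. On that array 16 of the 39 genes read at or above their control mean, and 7 did so on each of the other two. The same medians over all 7106 genes ran from -0.012 to 0.022. Without ethanol replicate 2 the median log2 change of the proteasome genes was -0.25, and without replicate 1 it was -0.14.

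**Figure D3:**
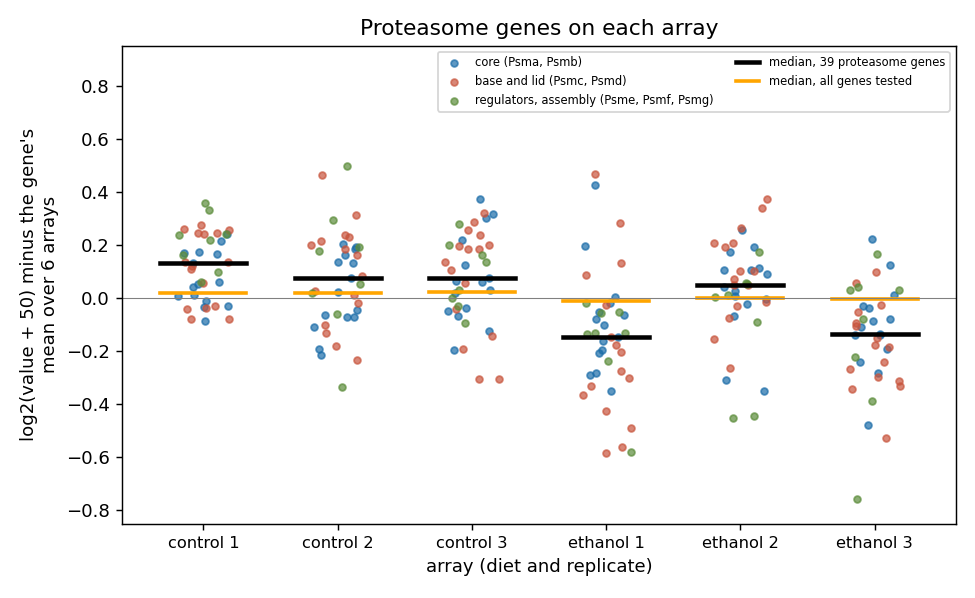
Deviation of each proteasome gene from its own mean over 6 arrays, on the log2(value + 50) scale, by array and coloured by class; black bars are medians of the 39 genes and orange bars those of all genes tested. Ethanol arrays 1 and 3 have medians of -0.15 and -0.14, and ethanol array 2 has 0.050, within reach of the controls.

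For 4 of the 5 genes lower at an unadjusted p under 0.05, and for 2 genes described for contrast, RefSeq promoters are shown: Psmb3, the gene with the largest positive change, and Psme4, whose probe sets differ in size of change. Psmd6 has none in the table used. Each stretch is the 160 bases before the annotated start of transcription in the GRCr8 assembly, 5′ to 3′ on the strand of the gene. Capitals mark matches, on either strand, to the antioxidant response element core TGACNNNGC, which Nfe2l1 and Nfe2l2 bind, the NF-Y box CCAAT, the gamma-activated site TTCNNNGAA, the interferon-stimulated response element (GAAA, 2 bases of any kind, GAAA) and the heat shock element core (GAA, 2 bases of any kind, TTC, with 1 base of any kind on each side). The matches marked do not overlap each other.
Psmc3, base ATPase, chr3:97487483-97487642, plus strand: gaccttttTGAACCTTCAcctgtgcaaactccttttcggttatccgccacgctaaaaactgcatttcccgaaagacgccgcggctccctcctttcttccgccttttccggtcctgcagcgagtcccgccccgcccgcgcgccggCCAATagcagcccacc
Psmd5, base assembly, chr3:38548491-38548650, minus strand: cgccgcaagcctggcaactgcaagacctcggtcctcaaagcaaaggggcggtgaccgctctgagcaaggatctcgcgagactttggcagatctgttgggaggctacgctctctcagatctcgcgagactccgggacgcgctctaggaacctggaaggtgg
Psmf1, inhibitor, chr3:160720916-160721075, minus strand: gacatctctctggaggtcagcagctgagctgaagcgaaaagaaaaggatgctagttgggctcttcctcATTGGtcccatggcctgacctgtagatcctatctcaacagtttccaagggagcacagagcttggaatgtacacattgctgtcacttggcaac
Psmg3, core assembly, chr12:19923128-19923287, plus strand: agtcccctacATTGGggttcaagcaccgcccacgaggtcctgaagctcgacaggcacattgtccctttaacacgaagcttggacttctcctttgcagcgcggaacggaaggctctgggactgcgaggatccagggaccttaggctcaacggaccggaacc
Psmb3, beta ring, chr10:83193627-83193786, plus strand: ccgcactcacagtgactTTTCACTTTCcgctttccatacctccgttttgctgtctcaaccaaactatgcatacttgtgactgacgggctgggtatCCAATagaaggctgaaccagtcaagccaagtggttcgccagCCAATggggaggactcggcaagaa
Psme4, activator cap, chr14:108706483-108706642, plus strand: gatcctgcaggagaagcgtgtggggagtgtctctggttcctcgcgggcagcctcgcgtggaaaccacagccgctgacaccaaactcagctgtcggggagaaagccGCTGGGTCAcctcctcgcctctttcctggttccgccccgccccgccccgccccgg

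Of the 41 genes, 39 had a promoter in the table. Within 250 bases before the start, CCAAT was found in 19 of them, 48.7%, and in 35.5% of the 19005 promoters of protein-coding genes. The core (Psma and Psmb) had it in 10 of 15, the base and lid genes (Psmc and Psmd) in 7 of 16 and the regulators and assembly factors (Psme, Psmf and Psmg) in 2 of 8. TGACNNNGC stood in 6, 15.4%, against 10.7% of all promoters, and the interferon-stimulated element in 5, 12.8%, against 3.23%. TTCNNNGAA and the heat shock element were each in 3 of 39, 7.69%, against 7.22% and 6.50%. The median log2 change was -0.19 for the 18 tested genes with CCAAT and -0.12 for the 19 without. It was -0.042 for the 5 with TGACNNNGC and -0.18 for the 32 without. Those 5 ran from -0.33 (Psma3) to 0.073 (Psmd9), and neither difference was tested. Another gene of opposite strand started within 1000 bases upstream of 7 of the 39, 17.9%, against 6.99% of all promoters, among them Tap1, a peptide transporter subunit, beside Psmb9.

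Among the core particle genes 10 of 15 tested were lower, with a median of -0.14. The base and lid genes had 13 of 16 lower and a median of -0.19, and the regulators and assembly factors 8 of 8 and -0.24. Psme3, a regulator by its symbol, is not among these 8, as its probe sets are annotated to Aoc3 and G6pc1 too. Those tested had changes of 0.87 (SE 0.20, limma adjusted p = 0.099), 0.40 (SE 0.18, adjusted p = 0.295) and 0.080 (SE 0.14). On the probe sets at 0.87 and 0.40, every ethanol array lay above every control. Another, under the filter, had -1.32 in a fit without the filter, with every ethanol array below every control. The probe sets of Psme3 thus gave no common direction. No difference between the classes was tested. The range of changes was -0.33 to 0.25 in the core, -0.45 to 0.14 in base and lid and -0.60 to -0.013 in the regulators, so the classes overlapped widely. Single arrays moved these medians: without ethanol replicate 2 they were -0.22 for the core and -0.33 for base and lid, and without ethanol replicate 1 that of the regulators was -0.128. The order of the classes was not stable either. Without the intensity filter the core was at -0.158 and base and lid at -0.149, without ethanol replicate 1 the core was at -0.131, below the regulators, and with a filter at the 60th percentile base and lid, at -0.27, lay below the regulators, at -0.20.

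In the core, the alpha ring, which forms the gated entrance of the barrel, had 6 of 7 genes lower and a median of -0.25, and the 6 tested constitutive beta genes 4 lower and -0.067. Psma6 was at 6989, 7079 and 6475 in control rats and at 5584, 6167 and 5080 in ethanol rats. All 3 ethanol arrays lay below all 3 controls (log2 change -0.29, SE 0.14, limma adjusted p = 0.321). Psma3 was separated in the same way, at 504, 427 and 588 against 409, 347 and 413 (-0.33, SE 0.16, adjusted p = 0.316). A brighter probe set, shared with Psma3l, read 2338, 2619 and 2271 against 1551, 1900 and 1671 (-0.49, SE 0.15, limma adjusted p = 0.155). Psma7, at 3335, 2911 and 2928 against 2471, 2817 and 2787, was separated too, though ethanol replicates 2 and 3 lay close to the controls. The remaining alpha genes overlapped between diets. Psma2 read 1021, 1171 and 1312 in control rats and 1045, 1062 and 733 in ethanol rats, the lowest value on replicate 3. Psma5 read 2494, 2170 and 2813 against 2172, 2168 and 1916. Psma4 had a change of -0.25, and Psma1 was the only alpha gene with a positive one, 0.046 (SE 0.16).

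The beta ring carries the proteolytic sites, and its catalytic members Psmb5 and Psmb7 showed no common shift. The catalytic Psmb6 was read only by a probe set shared with Psmb6l1 (-0.012, SE 0.15) and is not among the 39. Psmb5, which holds the chymotrypsin-like site, was at 10567, 10672 and 13050 in control rats and at 15062, 8777 and 10205 in ethanol rats. Its ethanol arrays spanned the whole control range, and the log2 change of -0.042 had a 95% interval of -0.54 to 0.45. Psmb7, with the trypsin-like site, was at 3139, 3419 and 3251 against 2554, 3355 and 3053, with only replicate 1 well below the controls (-0.14, SE 0.15). Among the structural beta genes, Psmb4 and Psmb3 went opposite ways. Psmb4 was at 4921, 4994 and 4780 in control rats and lower on all ethanol arrays, at 3575, 4410 and 3832 (-0.32, SE 0.14, limma adjusted p = 0.283). Psmb3 was at 2600, 2261 and 2257 and higher on all ethanol arrays, at 2970, 2925 and 2613 (0.25, SE 0.14, adjusted p = 0.377). It is the single gene of the 39 that was separated upwards, and RefSeq lists 10 named copies or pseudogenes of it, whose transcripts its probe set could also read. The same limit holds for genes separated downwards, among them Psma6 with 5 named copies, Psma7 with 3 and Psmb4 with 1. Psmb1 (-0.092) and Psmb2 (0.042) overlapped between diets.

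The immunoproteasome genes encode the catalytic beta subunits that interferon gamma induces: Psmb8 takes the place of Psmb5, Psmb9 that of Psmb6 and Psmb10 that of Psmb7. They gave no common direction. Psmb10 was at 4605, 4251 and 4358 in control rats and at 4415, 5117 and 4138 in ethanol rats, with replicate 2 above and replicate 3 below every control (0.044, 95% interval -0.29 to 0.37). Psmb9 was at 885, 721 and 857 against 798, 903 and 927 (0.091, interval -0.25 to 0.43), and the diets overlapped. Psmb8 fell short of the intensity filter and was not tested; it was at 330, 569 and 523 against 353, 245 and 396, again overlapping. The activator cap made of Psme1 and Psme2, likewise induced by interferon gamma, read 2142, 2162 and 1866 against 1610, 1922 and 1806 for Psme1 (-0.20, SE 0.14). Psme2 read 1228, 1003 and 1071 against 951, 1188 and 891 (-0.12, SE 0.16). Both overlapped between diets.

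Other interferon response and class I antigen presentation genes showed no common direction either. Of 26 listed, 20 were on the array and 11 were tested, and by limma 0 were lower or higher at an unadjusted p under 0.05, against 11.2% and 7.64% of all genes (median 0.016). B2m, the light chain of class I molecules, was at 7924, 8675 and 9808 in control rats and 7780, 8151 and 7751 in ethanol rats (-0.15, SE 0.14), with all ethanol arrays but replicate 2 below the lowest control. The changes of Tapbp (-0.35), Socs1 (-0.21) and Irf7 (0.11), the others of smallest p, did not pass. Tap1 and Tap2 lay under the filter. Leukocyte markers, since immune cells are rich in immunoproteasome, summed to 8961 to 9710 on control arrays and 10085 to 10665 on ethanol arrays over 13 genes. Of these 13, 7 were tested, with a median of 0.017; Ptprc, Cd3e, Cd3d, Cd79b, Itgam and Cd8a lay under the filter. Aif1, a macrophage marker, was at 2084, 2164 and 1946 against 2920, 2070 and 3294 (0.39, SE 0.19, adjusted p = 0.320), and Lyz2, a myeloid lysozyme, was at 0.017 (SE 0.18).

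Within the base, the ATPases, which unfold substrates and open the core, had 3 negative changes and 2 positive ones. Psmc3 was at 1616, 1522 and 1627 in control rats and below them on all ethanol arrays, at 903, 1403 and 1217. Its log2 change was -0.44 (SE 0.18, unadjusted p = 0.0380, limma adjusted p = 0.241), and without ethanol replicate 1 it was -0.27. Psmc1, whose tail helps to open the gate, was at 2478, 2372 and 2244 against 1437, 2364 and 1598. Here replicate 2 lay among the controls and the other ethanol arrays far below them (-0.42, SE 0.20, adjusted p = 0.307). Psmc2 likewise had only replicate 2 among the controls, at 3077, 2611 and 2944 against 2221, 2653 and 2026 (-0.32, SE 0.16). Psmc5 read 1388, 1266 and 1029 against 1153, 1548 and 1375 (0.14, SE 0.17), and Psmc4 had a change of 0.12 (SE 0.17). Both overlapped between diets, so members of 1 ring did not share a direction.

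The other base subunits with a Psm symbol receive ubiquitin chains and shuttle proteins. Psmd4, a ubiquitin receptor, was at 1571, 1340 and 1812 in control rats and 1267, 1549 and 1189 in ethanol rats (-0.23, SE 0.17). Psmd2, a scaffold that docks shuttle factors, was at -0.082 (SE 0.18), and both overlapped. Psmd1, its partner scaffold, read -86, 24 and 128 against -116, 101 and 147, at background on this probe set, and gives no level.

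All 6 tested lid genes had negative changes (median -0.23). Psmd6, a structural lid subunit, had the smallest adjusted p of the 39 genes. It was at 3880, 3826 and 3690 in control rats and at 2503, 3070 and 2729 in ethanol rats, so that the highest ethanol array lay below the lowest control. The log2 change was -0.45 (95% interval -0.78 to -0.13, unadjusted p = 0.0115, limma adjusted p = 0.161), and over the alternative settings the adjusted p ran from 0.0760 to 0.356. Psmd3 was separated too, at 1382, 1532 and 1571 against 975, 1311 and 1276 (-0.33, SE 0.16). So was Psmd8, the last subunit to join the lid, at 1869, 2385 and 2179 against 1508, 1867 and 1771 (-0.31, SE 0.16), though only just, with 1869 and 1867 as the nearest values. The other lid genes overlapped. Psmd11, which ties the lid to the core, was read by 2 probe sets with changes of -0.022 (SE 0.18) and -0.081 (SE 0.14). Its brighter probe set was at 1269, 1185 and 1506 against 1388, 1495 and 1040. Psmd7, the partner of the lid's deubiquitinase, was at -0.15 and Psmd13 at -0.13 (SE 0.27).

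**Figure D4:**
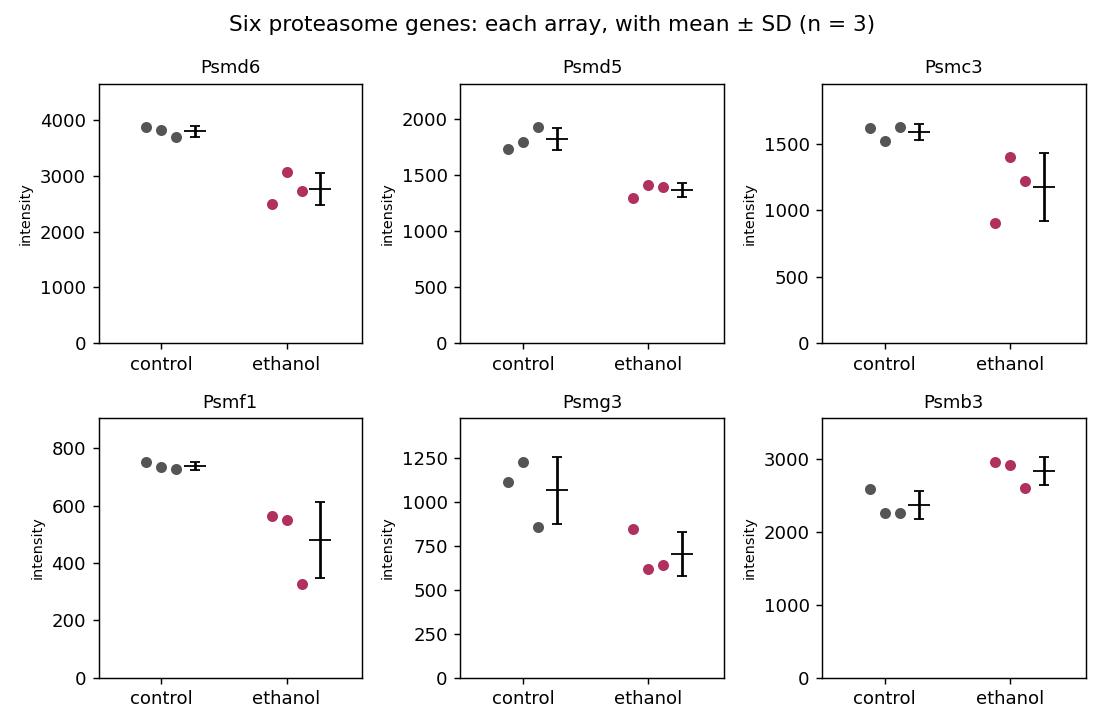
Intensity on each array (points) with mean ± SD (n = 3) for the 5 proteasome genes lower at an unadjusted p under 0.05 and for Psmb3, by diet; each panel starts at 0. In the first 5 panels all ethanol points lie below all control points, and for Psmb3 they lie above, from 2613 to 2970 against 2257 to 2600.

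Of the chaperones that build the base, Psmd5 was separated between diets, and Psmd9 and Psmd10 overlapped. The differences between them were not tested. Psmd5, which holds ATPases ready for the base, was at 1737, 1798 and 1931 in control rats and 1294, 1411 and 1390 in ethanol rats. The change of -0.40 (SE 0.13, 95% interval -0.71 to -0.097, limma adjusted p = 0.173) was carried by all 3 ethanol arrays, replicate 2 included. Psmd9 was at 614, 656 and 632 against 919, 534 and 607, where replicate 1 stood above every control and the others below (0.073, SE 0.20). Psmd10, also called gankyrin, was at 855, 759 and 569 against 789, 941 and 481 (-0.013, SE 0.25).

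The chaperones of the alpha ring work as pairs, Psmg1 with Psmg2 and Psmg3 with Psmg4, and within each pair the changes differed in size. Psmg3 was at 1111, 1229 and 856 in control rats and 845, 616 and 643 in ethanol rats, with 856 and 845 as the nearest values. Its log2 change was -0.57 (SE 0.19, 95% interval -0.998 to -0.14, limma adjusted p = 0.173). Psmg4, its partner, was at 2994, 2976 and 2681 against 2763, 2878 and 2925, inside the control range on every ethanol array (-0.013, interval -0.32 to 0.29). Psmg2 was at 1131, 967 and 1071 against 865, 682 and 1076 (-0.28, SE 0.18), and Psmg1 at 1305, 858 and 1208 against 996, 1140 and 1129 (-0.026, SE 0.18). Both overlapped, and the differences between partners were not tested.

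Psmf1, which inhibits the core particle in vitro, had the largest change of the 39. It was at 754, 735 and 727 in control rats, a spread of 13.9 (SD), and at 565, 551 and 328 in ethanol rats. The log2 change was -0.60 (SE 0.20, unadjusted p = 0.0172, limma adjusted p = 0.177). All ethanol arrays were lower, and ethanol replicate 3 was the farthest from the controls; without it the change was -0.38.

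Psme4, a large nuclear activator cap, was read by 3 probe sets, and the size of its change depended on which was taken. The brightest, which stands for the gene, was at 2210, 2362 and 2370 in control rats and 1360, 2145 and 2105 in ethanol rats (-0.33, SE 0.19, limma adjusted p = 0.402). All ethanol arrays were lower, with replicate 1 far below, and without it the change was -0.12. The middle probe set, at 1510, 1581 and 771 against 636, 814 and 931, overlapped between diets (-0.62, SE 0.28, adjusted p = 0.283). The dimmest, under the filter, was at 606, 636 and 634 against 118, 373 and 246, with a change of -1.29 in a fit without the filter. All 3 probe sets were lower on average, and the mean of their log2 values gave -0.74 (adjusted p = 0.134).

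**Figure D5:**
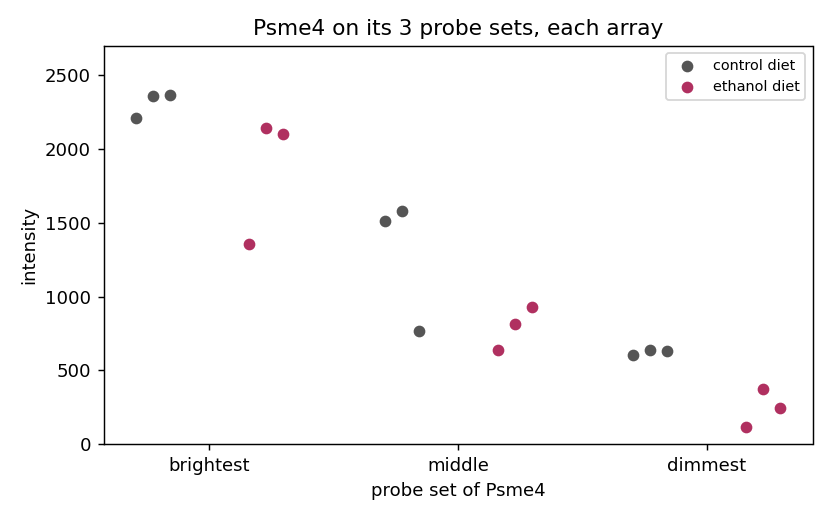
Intensity of Psme4 on each array (points) for its 3 probe sets, ordered by mean level, by diet. Ethanol points lie below control points on the brightest and dimmest probe sets, and the middle one overlaps because control replicate 3 read 771.

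A fixed list of 20 held proteins that work beside the proteasome and some of its own parts whose symbols lack Psm, such as Adrm1 and Sem1. Of the 20, 15 were on the array and 13 were tested. By limma 3 of the 13 were lower and 0 higher at an unadjusted p under 0.05, against 11.2% lower and 7.64% higher among all genes tested. After adjustment 0 of the 13 passed, against 0.436% of all genes. The median was -0.069, and 7 of the 13 changes were negative. Txnl1, a thioredoxin bound to the regulatory particle, was at 6455, 5813 and 7696 in control rats and 4495, 4028 and 4399 in ethanol rats (-0.61, SE 0.15, adjusted p = 0.114). Ubqln4, a shuttle for ubiquitinated proteins, was at 1184, 1119 and 1230 against 889, 813 and 791 (-0.48, SE 0.13, adjusted p = 0.138). Ecpas, a scaffold that holds core and regulatory particle together, was at 3051, 2755 and 2869 against 2106, 2175 and 2152 (-0.42, SE 0.13, adjusted p = 0.161). In all 3 genes every ethanol array lay well below every control, replicate 2 included. Adrm1, a ubiquitin receptor of the base, was at 823, 832 and 1088 against 909, 1119 and 1266 (0.25, SE 0.18), with the diets overlapping.

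Upstream of the proteasome, Vcp and the genes of ER-associated degradation deliver substrates pulled from membranes. Of 22 listed, 16 were tested, 14 of them with a negative change and a median of -0.24, where 51.4% of all genes tested were negative and their median was -0.011. By limma 6 of the 16 were lower and 0 higher at an unadjusted p under 0.05, and 0 passed over all genes. Of all genes tested, 11.2% were lower and 7.64% higher by the first rule, and 0.436% passed the second. Os9, a lectin that picks out misfolded glycoproteins in the ER, was at 3429, 2931 and 2586 in control rats and 1763, 1715 and 1600 in ethanol rats (-0.79, SE 0.15, adjusted p = 0.0793). The Vcp cofactors Faf1 (-0.60, SE 0.14), Ubxn4 (-0.58, SE 0.14) and Ubxn1 (-0.53, SE 0.14) were also separated between diets, with adjusted p from 0.101 to 0.131.

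The factors that act on proteasome genes gave no common direction. Of 14 listed, 10 were tested, 5 of them negative, and by limma 0 were lower or higher at an unadjusted p under 0.05, against 11.2% and 7.64% of all genes. Nfe2l1 was at 960, 1144 and 949 in control rats and 1517, 991 and 1141 in ethanol rats (0.23, SE 0.18, adjusted p = 0.537), with its highest value on ethanol replicate 1. The changes were 0.27 (SE 0.13) for Stat3, -0.31 (SE 0.17) for the heat shock factor Hsf1 and -0.51 (SE 0.29) for Mafg, a partner of Nfe2l1 on DNA. From the ubiquitin supply list of 8 genes, Uba1, the main ubiquitin-activating enzyme, was at 0.084 (SE 0.14) and Usp5, which recycles free chains, at 0.14 (SE 0.14).

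Psmc3ip and Psme3ip1, which match by name only, lay near 0. Psmc3ip, a recombination factor, was at 625, 517 and 660 against 821, 578 and 357 (-0.096, SE 0.26). Psme3ip1 was at 1863, 2134 and 1667 against 1828, 1787 and 1657 (-0.095, SE 0.15). With them included, the median over 41 tested genes was -0.15.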

How the data were processed

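Intensities as deposited by the authors, on a linear scale, were used, 1 for each probe set on each array. The sources used here name no scanner, software or normalization. From the values, background had been subtracted, with 931 to 949 values per array below 0, and the arrays shared nearly 1 distribution. The series' design text names 3 rats for each diet, and each diet has 3 arrays, so each array was taken as 1 rat. After removal of 57 control probe sets, 15866 remained. Values below 0 were set to 0, 50 was added and the log2 taken, so that fold changes of dim probe sets are understated. The 9520 probe sets (7106 genes) with a mean log2 value no lower than the 40th percentile entered a test with limma 3.58.1 in R 4.3.3, with diet as the only term. Benjamini-Hochberg adjustment ran over all probe sets tested. The number of arrays limits the precision.

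The genes given array by array were set by a rule: the 4 members of smallest p in each of Psma, Psmb, Psmc, Psmd and Psme with Psmf and Psmg, further genes set by name, the 4 genes of smallest p in each related list and the 2 brightest of each marker list. Members and lists were chosen with earlier results of these data known. The middle and dimmest probe sets of Psme4 and the promoters printed were chosen after values were seen. Promoters are those of RefSeq in the GRCr8 table, matched by gene ID. RefSeq names copies or pseudogenes for 14 of the 41 genes, whose probe sets may read them too. On simulated data for the 9520 probe sets of this comparison, the fit recovered 61.4% of 2-fold changes and 96.8% of 4-fold changes.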

Additional observations from a re-analysis of the deposited data

How the results depend on the processing

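The count of proteasome genes called by limma was 0 under each alternative run, among them constants of 20 and 100, quantile normalization, equal medians, other filters, a variance trend, an adjusted p under 0.10 and each array left out (at an unadjusted p under 0.05, 3 to 9 were lower and 0 higher). Their median stayed negative, from -0.25 to -0.14. Leaving out 1 array each, the medians ran from -0.22 to -0.10 for the core, from -0.33 to -0.17 for base and lid and from -0.30 to -0.13 for regulators and assembly factors. Over all probe sets the count of calls, 39, was 12 with a constant of 20, 0 without the filter, 134 with a filter at the 60th percentile, 249 with a variance trend, 228 at an adjusted p under 0.10, and 2 to 38 with each array left out. With the replicate block, 6 probe sets and 0 proteasome genes were called. No shared effect of replicate number was seen: same-numbered arrays had correlations of deviations of -0.0295, 0.0259 and -0.138. These cannot show whether the rats were paired, and no such block is used above. The cause of these moves was not tested.

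Genes near 0 changed sign when an array was left out, and none did so under any other setting. Their ranges were -0.053 to 0.15 for Psma1, -0.075 to 0.12 for Psmb2, -0.26 to 0.12 for Psmb5, -0.042 to 0.11 for Psmb10, -0.21 to 0.049 for Psmd2, -0.12 to 0.13 for Psmd11, -0.33 to 0.13 for Psmd13, -0.14 to 0.22 for Psmd9, -0.20 to 0.25 for Psmd10, -0.20 to 0.089 for Psmg1, -0.063 to 0.015 for Psmg4 and -0.36 to 0.19 for Psmc3ip. A change in 1 gene of the size of the median standard error, 0.16, was not detectable with 3 arrays per diet.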

Other observations

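Markers of other cells in the tissue were read on the same arrays. Of the erythroid markers, Hbb, a globin, was at 11853, 10565 and 15979 in control rats and 18955, 25136 and 22509 in ethanol rats (log2 change 0.80, SE 0.20, limma adjusted p = 0.107), and Hba-a3 was at 0.64 (SE 0.20). All their ethanol arrays lay above all control arrays. The islet hormones Ins1 (-0.17, SE 0.20) and Ins2 (-0.089, SE 0.19) had their lowest value on ethanol replicate 1. They were the only 2 of the 5 islet markers with a negative change. The median of the 5 was 0.38, the largest change was 0.52 and the smallest limma adjusted p was 0.424. The 5 islet markers summed to 141007 to 172692 on control arrays and to 110419 to 170626 on ethanol arrays. For stellate cells and fibroblasts, Dcn (-0.14, SE 0.22) and Col3a1 (-0.051, SE 0.28) overlapped between diets, as did the endothelial Pecam1 (-0.038, SE 0.18) and Kdr (-0.18, SE 0.17). The duct keratins Krt19, under the filter, and Krt7 (-0.15, SE 0.26) were dim. Of the adipocyte markers, Cfd was at 780, 663 and 856 against 1718, 1069 and 1079 (0.69, SE 0.21, adjusted p = 0.158) and Fabp4 at -0.13 (SE 0.24). The acinar lipase Pnlip was at 0.10 (SE 0.13), near the top of the intensity range. No plasma cell marker of the list had a probe set of its own among those used.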
